A study of Mus musculus with 70 samples.

Results

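Described here are 10 genes that mark endothelial cells, which line the blood vessels, in general or at the blood-brain barrier: the junction and adhesion genes Cldn5, Cdh5, Pecam1 and Esam, the receptor kinase genes Flt1, Kdr and Tek, the barrier transport genes Slco1a4 and Mfsd2a, and the surface antigen gene Ly6c1. They were chosen by name, with earlier results of these data known, and all 10 were found among the 50789 genes of the count table. Counts of these genes beside the share of all genes are therefore descriptive. The study compared WT mice with mice that lack the short or the long isoform of Capicua, a transcriptional repressor encoded by Cic. Its 9 groups combined 3 tissues (lung from pups of postnatal day 6, and, from mice aged 12 weeks, cortex and cerebellum) with 3 genotypes: Cic-S-KO mice, which lack the short isoform, Cic-L-KO mice, which lack the long isoform, and WT mice. Groups held 8 samples, or 7 in both brain regions of Cic-S-KO mice, 70 in all. The WT samples were pooled littermates of both lines, and the labels do not say which line each came from. The labels give no strain, sex or promoter-driven deletion, and they do not say whether samples of a group came from separate animals; the tests then measure only the spread between these samples, which may be technical.

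Endothelial cells hold to each other through VE-cadherin (Cdh5), claudin 5 (Cldn5), the adhesion molecule PECAM-1 (Pecam1) and ESAM (Esam). They sense growth signals through the VEGF receptors VEGFR1 (Flt1) and VEGFR2 (Kdr) and through TIE2 (Tek), the receptor of the angiopoietins; Kdr carries most of the signalling of VEGF-A, while Flt1 binds it tightly and also limits it. In the brain the same cells form the blood-brain barrier, for which Cldn5 seals the junctions, Mfsd2a carries lipids and restrains vesicle transport, and Slco1a4 moves organic anions such as bile acids and steroid conjugates. The lung is among the tissues richest in capillaries, and its capillaries lack that barrier. Ly6c1 encodes a small surface antigen of endothelial cells and of some leukocytes.

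Total counts per library ran from 17798655 to 35523037. Levels are given as CPM, the counts of a gene scaled to a common library total, normalised within each tissue by the trimmed mean of M values (TMM). All 24 lung libraries belonged to batch 1 and all 46 brain libraries to batch 2, so tissue, age and batch cannot be told apart between lung and brain. Marker sums matched the labelled tissues: 5 lung epithelial genes summed to at least 18680 CPM in every lung library and at most 1.78 CPM in any brain library, and 4 cerebellar neuron genes to at least 1419 CPM in every cerebellar library and at most 48.0 CPM in any cortical one. Cic itself, counted over the whole gene, averaged 138.5, 172 and 134.8 CPM in WT, Cic-S-KO and Cic-L-KO lung, 161.6, 250.6 and 297.7 CPM in cortex, and 191.7, 213.3 and 212.5 CPM in cerebellum. Counts per gene do not separate the isoforms, so they do not check the labels. Choroid plexus genes varied widely between brain libraries (9.31 to 1289 summed CPM in cortex, 40.7 to 4194 in cerebellum).

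The 10 genes lie apart in the genome (GRCm38, positions of the GENCODE M21 annotation). Kdr spans chr5:75932827-75978458 on the minus strand and Flt1 chr5:147561604-147726011 on the same strand of that chromosome, while Tek (chr4:94739289-94874976, plus strand) and Mfsd2a (chr4:122946850-122961188, minus strand) share another. Cldn5 lies at chr16:18776847-18778262 (plus), Cdh5 at chr8:104101625-104144511 (plus) and Slco1a4 at chr6:141805440-141856199 (minus). Ly6c1 and Slco1a4 have close relatives (Ly6c2 and other Slco1a genes) between which the counting could split reads, so their values are uncertain to that extent.

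In WT tissue, 8 of the 10 genes were higher in lung than in either brain region, and the 2 barrier transport genes were lower. Per length of exon, the level in WT lung fell in the order Cldn5 (391.7 ± 84.7 CPM per kb, SD, n = 8), Cdh5 (261.4 ± 25.6), Pecam1 (135.1 ± 10.1), Esam (78.6 ± 4.86), Tek (70 ± 6.07), Kdr (67.7 ± 6.63), Ly6c1 (27.9 ± 6.34) and Flt1 (12.8 ± 1.502). Tek and Kdr were apart by less than their spread. Mfsd2a, at 0.115 ± 0.0330 CPM per kb, and Slco1a4, at 0.0157 ± 0.0176, stood far below. In WT cortex the order per length was Cldn5 (18.1 ± 4.10), Ly6c1 (10.98 ± 1.53), Mfsd2a (7.74 ± 2.11), Slco1a4 (5.61 ± 0.598), Flt1 (4.91 ± 0.481), Esam (3.89 ± 0.440), Tek (3.33 ± 0.349), Cdh5 (3.31 ± 0.485), Pecam1 (3.14 ± 0.519) and Kdr (1.55 ± 0.390). Neighbours from Tek to Pecam1 did not differ beyond their spread. The barrier genes, last in lung, stood in cortex above all members but Cldn5 and Ly6c1. In WT cerebellum Cldn5 (14.8 ± 4.002) was again first and Kdr (1.06 ± 0.177) again last, with Ly6c1 at 9.65 ± 0.803 and Slco1a4 at 5.40 ± 0.965 next.

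**Figure D1:**
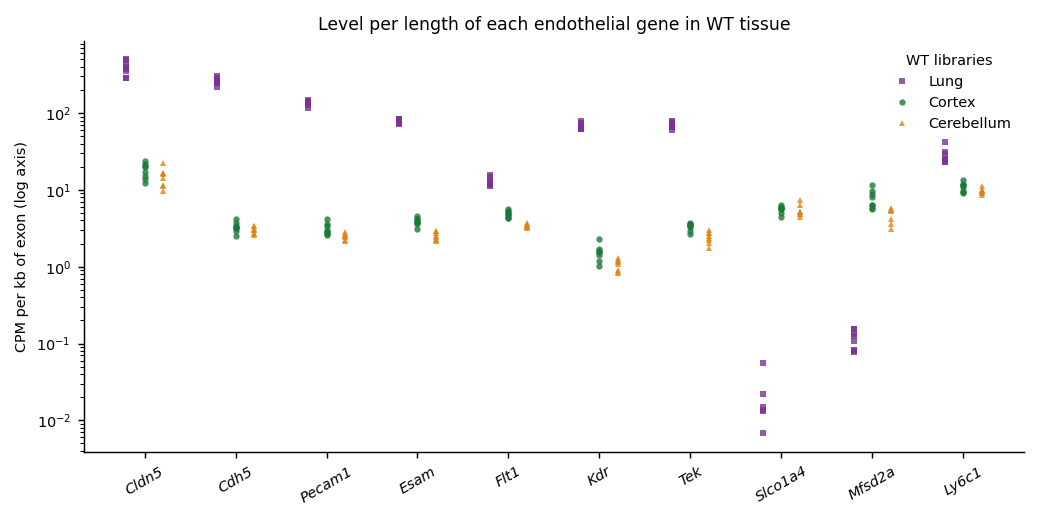
Level per length (CPM per kb of exon, log axis) of each of the 10 genes in every WT library of lung (squares), cortex (circles) and cerebellum (triangles). Values of 0, which occur for Slco1a4 in lung, have no place on a log axis and are not drawn. Slco1a4 and Mfsd2a lie lowest in lung, and the other 8 genes lie highest there.

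The lung-to-cortex ratio of mean CPM, which compares a gene with itself and so needs no length, was 79.0 for Cdh5, 43.7 for Kdr, 43.1 for Pecam1, 21.7 for Cldn5, 20.99 for Tek and 20.2 for Esam. It was only 2.61 for Flt1 and 2.54 for Ly6c1. For Mfsd2a the ratio ran the other way, with cortex 67.5-fold above lung (17.4 ± 4.74 against 0.258 ± 0.0742 CPM). Slco1a4 averaged 35.99 ± 3.83 CPM in WT cortex and 34.6 ± 6.19 CPM in WT cerebellum, and ran from 0 to 0.353 CPM in WT lung, where it did not pass the filter on low counts. With 1 TMM normalization over all 70 libraries the lung-to-cortex ratios were smaller, 65.1 for Cdh5 and 2.15 for Flt1, and each gene kept its direction. Lung and brain were normalised apart and carried different batch labels, and no test was made between them.

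Between the 2 brain regions of WT mice, 9 of the 10 genes were higher in cortex (edgeR quasi-likelihood test, Benjamini-Hochberg adjusted p under 0.05), all but Slco1a4. This comparison has a high background: 73.5% of the 18032 genes tested differed, 35.4% being higher in cortex and 38.2% lower. The difference was widest for Mfsd2a (log2 fold change 0.76 ± 0.15, SE; adjusted p = 1.32e-05 by edgeR), Esam (0.70 ± 0.09) and Kdr (0.63 ± 0.12), and narrowest among those that passed for Cdh5 (0.23 ± 0.10; adjusted p = 0.0357 by edgeR). Flt1 ran from 58.6 through a median of 65.9 to 77.2 CPM in cortex and from 43.5 through 46.2 to 50.5 CPM in cerebellum. No cortical library overlapped a cerebellar one for Flt1 or for Esam, which was true of 46% of all genes. These CPM and this share rest on normalization within each region, while the test used 1 normalization over both. The overlap therefore compares unlike scales. Slco1a4 differed by 0.14 ± 0.10 (interval of 2 SE, -0.06 to 0.34; adjusted p = 0.217 by edgeR). In tissue RNA such as this, fewer cells of a type and less RNA per cell cannot be told apart, here or in the comparisons that follow. With library deviations in 20 bins of GC content removed, Cldn5 (adjusted p = 0.0773) and Cdh5 (0.0646) no longer passed and Slco1a4 did (0.0133), all by edgeR. Without the low-count filter Cdh5 did not pass (adjusted p = 0.0827 by edgeR).

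In the Cic-L-KO cerebellum, 8 of the 10 genes rose against WT and none fell: all 4 junction and adhesion genes, all 3 receptor kinase genes and Mfsd2a. The background was 21.5% of 16643 genes in either direction and 10.9% higher. The median log2 fold change of the 10 was 0.47, against 0.00377 over all genes tested. Kdr changed most: it ran from 7.50 through a median of 10.04 to 11.6 CPM in WT and from 17.7 through 21.2 to 23.7 CPM in Cic-L-KO. Every Cic-L-KO library was above every WT library, and the fitted change was 2.20-fold (log2 1.14 ± 0.10, SE; adjusted p = 1.87e-08 by edgeR).

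The other receptor kinase genes rose by less than Kdr. Flt1 ran from 43.5 through 46.2 to 50.5 CPM in WT and from 60.7 through 67.1 to 78.3 CPM in Cic-L-KO (log2 0.55 ± 0.08; adjusted p = 7.06e-05 by edgeR). Tek ran from 8.37 through 11.5 to 13.98 CPM and from 14.1 through 15.7 to 18.1 CPM (0.47 ± 0.11; adjusted p = 0.00245 by edgeR). For both, the lowest Cic-L-KO library lay above the highest WT library.

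Because these 3 receptor genes rose together in the Cic-L-KO cerebellum and Slco1a4 did not pass there, the 250 bases before their starts are shown, from the RefSeq annotation of GRCm38.p6, 5′ to 3′ on the strand of the gene. Capitals mark GGAA on either strand (TTCC on the strand shown), the core of the sites of ETS factors, a family with known roles in endothelial genes. The windows are chr5:75978456-75978705 (minus strand) for Kdr, chr5:147726012-147726261 (minus) for Flt1, chr4:94739039-94739288 (plus) for Tek and chr6:141856221-141856470 (minus) for Slco1a4.
Kdr: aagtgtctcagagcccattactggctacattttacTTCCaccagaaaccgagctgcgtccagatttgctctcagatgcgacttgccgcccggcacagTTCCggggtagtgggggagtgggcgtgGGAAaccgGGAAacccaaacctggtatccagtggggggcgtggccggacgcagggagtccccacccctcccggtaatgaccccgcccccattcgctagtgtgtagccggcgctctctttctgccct
Flt1: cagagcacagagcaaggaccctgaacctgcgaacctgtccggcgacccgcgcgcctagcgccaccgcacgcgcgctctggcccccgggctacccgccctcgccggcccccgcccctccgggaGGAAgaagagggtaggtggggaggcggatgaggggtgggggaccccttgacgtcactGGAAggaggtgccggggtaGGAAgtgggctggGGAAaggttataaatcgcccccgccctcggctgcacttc
Tek: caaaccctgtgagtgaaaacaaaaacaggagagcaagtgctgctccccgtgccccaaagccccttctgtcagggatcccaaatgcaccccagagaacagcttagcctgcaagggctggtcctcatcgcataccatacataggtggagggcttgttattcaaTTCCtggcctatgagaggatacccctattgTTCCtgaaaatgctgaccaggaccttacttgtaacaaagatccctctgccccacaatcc
Slco1a4: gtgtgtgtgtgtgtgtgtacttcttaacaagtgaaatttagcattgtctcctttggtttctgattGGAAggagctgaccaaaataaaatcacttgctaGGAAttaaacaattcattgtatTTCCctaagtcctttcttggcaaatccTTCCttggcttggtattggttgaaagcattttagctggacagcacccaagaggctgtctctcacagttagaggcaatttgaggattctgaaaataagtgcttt

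GGAA stood 4 times before Kdr, 4 times before Flt1, 2 times before Tek and 4 times before Slco1a4, so the count did not separate the genes that rose from the one that did not pass. Mfsd2a held 2, the 2 starts of Ly6c1 held 4 and 6, and Cldn5 held none. GGAA is frequent: 93.4% of the 32851 starts in the table held at least 1, with a median of 3. The longer CCGGAA stood once before Kdr, overlapping a GGAA match, and before 12.0% of all starts. The octamers that Capicua is known to bind (TGAATGAA, TGAATGGA, TCAATGAA and TCAATGGA, searched on both strands) stood before 0 of the 8 starts found for 7 of the genes, and before 3.19% of all starts. Starts of Cdh5, Pecam1 and Esam were not matched in the table. A match or its lack in 250 bases describes these letters only.

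Among the junction and adhesion genes of the cerebellum, Cldn5 ran from 13.6 through a median of 21.5 to 31.5 CPM in WT and from 27.8 through 34.1 to 39.3 CPM in Cic-L-KO. The groups overlapped, since 1 WT library stood above 3 Cic-L-KO libraries, and the change was 0.68 ± 0.14 (adjusted p = 0.00131 by edgeR). Cdh5 ran from 10.7 through 12.7 to 14.2 CPM in WT and from 17.6 through 19.4 to 21.5 CPM in Cic-L-KO, with no overlap (0.64 ± 0.09; adjusted p = 3.03e-05 by edgeR). Pecam1 (0.42 ± 0.10; adjusted p = 0.00477) and Esam (0.41 ± 0.09; adjusted p = 0.00188 by edgeR) rose by similar amounts, from means of 15.7 and 7.26 CPM to 20.9 and 9.66 CPM. In all, 6 of the 10 genes did not overlap between Cic-L-KO and WT, Cldn5 and Mfsd2a being the risen genes that did, against 3.96% of all genes.

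Of the barrier genes, Mfsd2a ran from 6.92 through 12.2 to 13.1 CPM in WT cerebellum and from 10.2 through 14.5 to 20.3 CPM in Cic-L-KO (0.47 ± 0.15; adjusted p = 0.0276 by edgeR). It no longer passed when any 1 of 6 libraries was left out (Cic-L-KO replicate 3, 4 or 8, WT replicate 3, 4 or 7; adjusted p up to 0.0656 by edgeR) or without the low-count filter (0.0884), and missed the threshold with the replicate number as a block (0.0523). Slco1a4 ran from 28.2 through 32.7 to 47.4 CPM in WT and from 35.7 through 38.8 to 45.3 CPM in Cic-L-KO, a difference of 0.20 ± 0.11 (interval of 2 SE, -0.01 to 0.41; adjusted p = 0.184 by edgeR). Ly6c1 had a mean of 16.2 ± 1.35 CPM in WT and 17.4 ± 1.23 CPM in Cic-L-KO, a difference of 0.11 ± 0.09 (interval -0.08 to 0.29; adjusted p = 0.452 by edgeR). Both intervals lie below the estimate for Kdr.

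**Figure D2:**
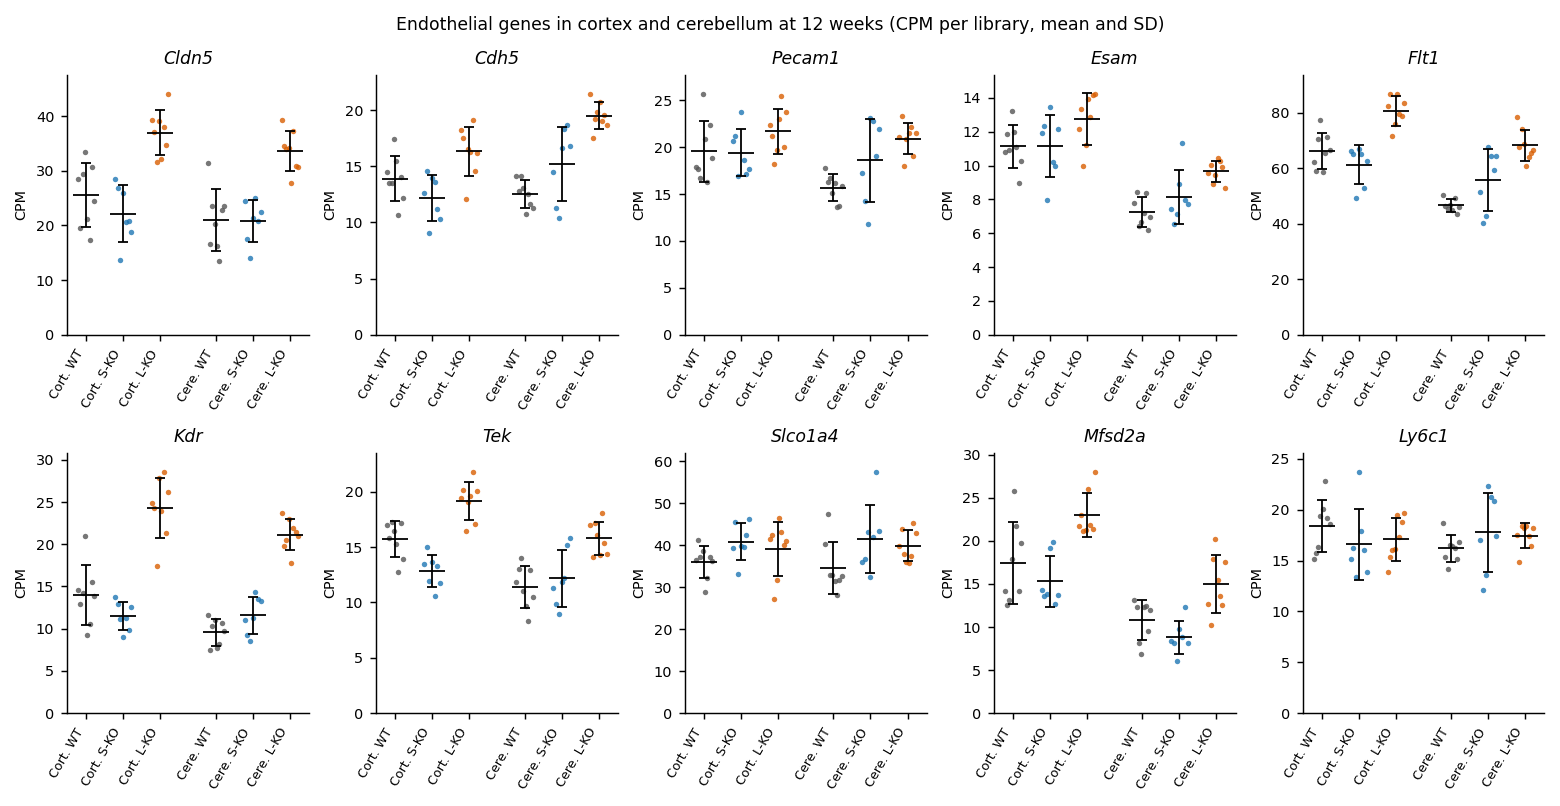
CPM of each gene in every cortical and cerebellar library (points), with the group mean and SD (bars), n = 8 per group and 7 in the Cic-S-KO groups. Cic-L-KO libraries of Kdr lie above all WT libraries in cerebellum and above most of them in cortex, while Slco1a4 and Ly6c1 overlap between all groups.

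Genes of other vascular cells stood higher in the same cerebellar libraries, where 10.9% of all genes rose. Of 9 mural cell genes tested, which mark pericytes and smooth muscle, 5 rose, among them Myh11 (0.69 ± 0.12) and Vtn (0.44 ± 0.09), and their sum was 159.6 to 194.7 CPM in Cic-L-KO against 117.7 to 145.6 CPM in WT, with no overlap. Of 5 fibroblast genes, 4 rose, among them Col1a1 (0.60 ± 0.12), with sums of 130.7 to 161.7 against 97.0 to 126.9 CPM. Of 6 leukocyte and platelet genes 1 rose (Csf1r, 0.23 ± 0.07), which is near the share of all genes. The leukocyte and platelet sums were 41.5 to 52.4 against 36.5 to 48.5 CPM. Tagln was at 0 in 1 to 6 libraries of each brain group, and no fibroblast marker was at 0 in any. The summed cerebellar neuron genes were 1625 to 2149 CPM in Cic-L-KO and 1980 to 2443 CPM in WT, 2 of the 4 genes having fallen. The part of these cells in the result was not tested. With the summed choroid plexus level of each library as a covariate, an alternative chosen after seeing the data, the same 8 of the 10 endothelial genes passed.

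In the Cic-L-KO cortex, 5 of the 10 genes rose and none fell: Cldn5, all 3 receptor kinase genes and Mfsd2a. Of all 16974 genes tested there, 43.2% changed, 21.4% higher and 21.9% lower, so the share of the endothelial genes stands beside a large background. Their median log2 fold change was 0.26, against 0.0114 over all genes. Kdr again changed most. It ran from 9.29 through a median of 14.1 to 20.99 CPM in WT and from 17.4 through 24.6 to 28.5 CPM in Cic-L-KO, where 7 of 8 libraries were above every WT library (1.74-fold, log2 0.80 ± 0.13; adjusted p = 2.50e-05 by edgeR).

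Cldn5 in cortex ran from 17.3 through 26.5 to 33.5 CPM in WT and from 31.6 through 37.5 to 44.1 CPM in Cic-L-KO (0.53 ± 0.14; adjusted p = 0.00426 by edgeR). Flt1 ran from 58.6 through 65.9 to 77.2 CPM and from 71.5 through 80.9 to 86.8 CPM (0.28 ± 0.06; adjusted p = 6.44e-04 by edgeR), and Tek from 12.8 through 16.1 to 17.3 CPM and from 16.4 through 19.5 to 21.8 CPM (0.29 ± 0.07; adjusted p = 0.00167 by edgeR). For each of these 3 genes, 6 of 8 Cic-L-KO libraries stood above every WT library. Mfsd2a ran from 12.6 through 16.1 to 25.8 CPM in WT and from 21.1 through 21.8 to 28.0 CPM in Cic-L-KO (0.41 ± 0.14; adjusted p = 0.0190 by edgeR), with only 2 Cic-L-KO libraries above the highest WT library. None of the 10 genes separated the groups, beside 13.2% of all genes.

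The remaining junction genes of the cortex missed the threshold: Cdh5 differed by 0.23 ± 0.10 (adjusted p = 0.0605), Esam by 0.19 ± 0.09 (0.0886) and Pecam1 by 0.15 ± 0.09 (0.167 by edgeR). Cdh5 passed with only the compared genotypes in the fit (adjusted p = 0.0412) and with the replicate number as a block (0.0303 by edgeR). Slco1a4 differed by 0.12 ± 0.09 and Ly6c1 by -0.11 ± 0.10. WT replicate 4, in which all 10 genes were above the group mean (median deviation 0.23 on the log2 scale), bore on this count: without it 8 genes passed, Cdh5, Pecam1 and Esam joining. Cic-L-KO replicate 3 was low in all 10 genes (median deviation -0.23). Mural genes rose in 4 of 9 cases (21.4% of all genes), among them Notch3 (0.53 ± 0.10). Their sums overlapped between Cic-L-KO (141.4 to 182.1 CPM) and WT (103.5 to 160.6 CPM). Among 5 fibroblast genes 2 fell (21.9% of all genes), Dcn (-0.76 ± 0.19) and Lum (-0.51 ± 0.19), with sums of 34.9 to 80.4 against 39.8 to 88.9 CPM. Cortical neuron genes summed to 1349 to 1585 CPM in Cic-L-KO and to 1786 to 1981 CPM in WT, without overlap, and choroid plexus genes had median sums of 407.2 and 28.8 CPM. With the choroid plexus sum as a covariate the same 5 endothelial genes passed, and the part of the other cells was not tested.

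Whether the Cic-L-KO effect differed between the regions was tested as an interaction. It passed for 1 gene, Cdh5, whose effect was smaller in cortex than in cerebellum by 0.41 ± 0.14 (adjusted p = 0.0311 by edgeR; 0.0792 without the low-count filter), beside 23% of all genes, 11.5% lower. DESeq2 called 2, Cdh5 and Flt1, beside 25% of all genes. For Kdr the difference of effects was -0.34 ± 0.17 (adjusted p = 0.140), and for Flt1 -0.27 ± 0.11 (0.0728 by edgeR). The estimate was negative for all 10 genes, with a median of -0.22. Both regions' effects are drawn in the plot of fold changes, and the Pecam1 and Esam calls in cerebellum alone are not shown to differ from cortex (adjusted p = 0.180 and 0.246 by edgeR).

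**Figure D3:**
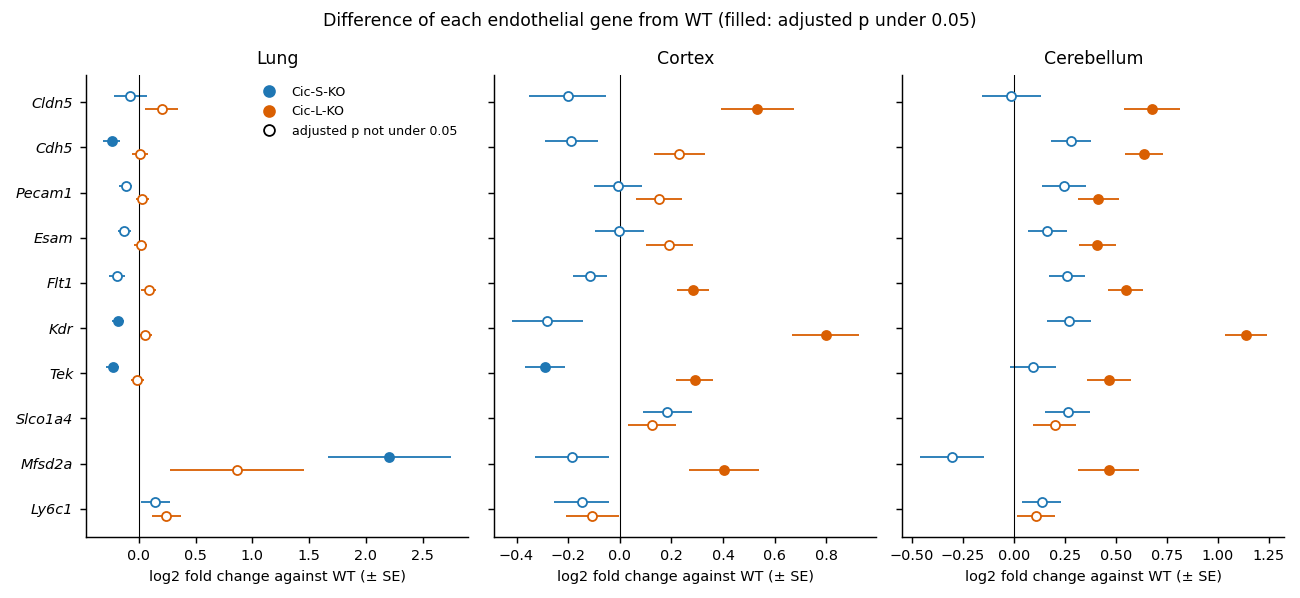
Log2 fold change of each gene against WT with its SE (bars), for Cic-S-KO and Cic-L-KO in lung, cortex and cerebellum; filled points have an adjusted p under 0.05, and the 3 panels have their own horizontal scales. Kdr reaches 0.80 in Cic-L-KO cortex and 1.14 in Cic-L-KO cerebellum, and Mfsd2a 2.21 in Cic-S-KO lung.

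In the Cic-S-KO cortex 1 of the 10 genes passed, Tek, which fell, beside 6.53% of all genes, 2.83% higher and 3.7% lower. Tek ran from 12.8 through 16.1 to 17.3 CPM in WT and from 10.6 through 13.3 to 15 CPM in Cic-S-KO. The groups overlapped, 3 of 7 Cic-S-KO libraries lying under every WT library (-0.29 ± 0.08; adjusted p = 0.0216 by edgeR). This call was lost without Cic-S-KO replicate 5, Cic-S-KO replicate 7 or WT replicate 3 (adjusted p up to 0.0547), with GC bins removed (0.0609) and with only the compared genotypes in the fit (0.0502). Kdr differed by -0.28 ± 0.14 (adjusted p = 0.227 by edgeR), from a mean of 13.99 ± 3.52 to 11.5 ± 1.70 CPM. Of the 10 estimates 9 were negative, with a median of -0.17, and the remaining one, Slco1a4, was 0.18 ± 0.10. The library of Cic-S-KO replicate 3 was under the group mean in all 10 genes.

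In the Cic-S-KO cerebellum 0 of the 10 genes passed in edgeR, beside 8.23% of all genes, 4.34% higher. DESeq2 called 2, Cdh5 and Flt1, beside 11.1% of all genes. Cdh5 ran from 10.7 through 12.7 to 14.2 CPM in WT and from 10.4 through 16.7 to 18.7 CPM in Cic-S-KO (0.28 ± 0.10; adjusted p = 0.0742 by edgeR). Flt1 ran from 43.5 through 46.2 to 50.5 CPM and from 40.3 through 59.2 to 67.8 CPM (0.26 ± 0.09; adjusted p = 0.0673 by edgeR). For both genes 5 of 7 Cic-S-KO libraries stood above every WT library, while 1 library for Cdh5 and 2 for Flt1 stood below every one. None of the 10 genes separated the groups, beside 1.24% of all genes. Replicates 2 and 3 were the low libraries, with median deviations of -0.29 and -0.40 over the 10 genes, and their mural sums (139.4 and 121.7 CPM) and fibroblast sums (122.7 and 103.5 CPM) were under the group medians of 161.5 and 144.8 CPM. Without replicate 3 edgeR called 4 genes higher (Cdh5, Pecam1, Flt1 and Kdr), without replicate 2 it called Cdh5 and Flt1, and without WT replicate 1 or 2 it called 1 (Cdh5 or Slco1a4). The share of all genes that passed in those fits is not given here. Cldn5 differed by -0.01 ± 0.15 and Mfsd2a by -0.30 ± 0.16. Of the mural genes 3 of 9 rose, among them Myh11 (0.65 ± 0.13), and of the fibroblast genes 2 of 5, among them Dcn (0.65 ± 0.08), beside 4.34% of all genes. Their part was not tested.

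The Cic-S-KO effect differed between the regions for 1 gene, Flt1, lower in cortex than in cerebellum by 0.38 ± 0.11 (adjusted p = 0.0462 by edgeR), beside 4.5% of all genes, 2.01% higher and 2.5% lower. Samples of WT and of Cic-S-KO with the same number deviated together between cortex and cerebellum, and with the number as a block 3 genes passed: Flt1 (-0.36; adjusted p = 0.0484), Cdh5 (-0.46; 0.0483) and Kdr (-0.54; 0.0220 by edgeR). DESeq2 called the same 3. Of all genes 4.72% passed with the block and 6.31% in DESeq2. With GC bins removed Cdh5 passed (adjusted p = 0.0496) and Flt1 did not (0.0531), and without the low-count filter 0 of the 10 passed, all by edgeR.

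The 2 knockouts compared directly gave the same 6 genes in both regions, all lower where the short isoform was lacking: Cldn5, Cdh5, Flt1, Kdr, Tek and Mfsd2a. The background was 33.9% of genes in cortex (17.4% higher, 16.5% lower) and 12.4% in cerebellum (6.06% higher, 6.38% lower). Kdr stood at 11.5 ± 1.70 CPM (SD, n = 7) in Cic-S-KO cortex and 24.3 ± 3.59 CPM (n = 8) in Cic-L-KO cortex, the highest of the first (13.8 CPM) being under the lowest of the second (17.4 CPM), a difference of -1.08 ± 0.14 (adjusted p = 1.06e-06 by edgeR). In cerebellum the means were 11.6 ± 2.20 and 21.1 ± 1.87 CPM (-0.87 ± 0.11; adjusted p = 2.68e-06 by edgeR), again with no overlap. In cortex 5 of the genes did not overlap (Cldn5, Flt1, Kdr, Tek and Mfsd2a; 10.6% of all genes), and in cerebellum 2 (Cldn5 and Kdr; 2.75%). Pecam1, Esam, Slco1a4 and Ly6c1 passed in neither region, with differences from -0.25 (Esam in cerebellum) to 0.06. These comparisons use the same Cic-L-KO libraries as those against WT. In cerebellum the Flt1 call was lost when any 1 of 5 libraries was left out (Cic-L-KO replicate 1 or 3, Cic-S-KO replicate 1, 2 or 3) and the Tek call when any 1 of 3 was (Cic-L-KO replicate 6, Cic-S-KO replicate 2 or 3), with adjusted p up to 0.0655 by edgeR. The Flt1 call was also lost without the low-count filter (0.0921), with only these genotypes in the fit (0.0800) and with the replicate number as a block (0.0545).

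In the Cic-S-KO lung Cdh5, Kdr and Tek fell. The count of 4 of 9 tested genes also holds Mfsd2a, which had so few reads in WT that it entered the test through the knockout libraries, and it is described apart; with only Cic-S-KO and WT in the fit it was not tested and the count was 3. Of 16695 genes tested 15.7% passed, 5.73% lower and 9.99% higher. Tek ran from 282.9 through a median of 326.4 to 366.9 CPM in WT and from 249.0 through 283.5 to 308.6 CPM in Cic-S-KO (-0.23 ± 0.06; adjusted p = 0.00706 by edgeR). Cdh5 ran from 925.6 through 1098 to 1264 CPM and from 809.7 through 920.0 to 1046 CPM (-0.24 ± 0.07; adjusted p = 0.0242 by edgeR), and Kdr from 557.8 through 586.0 to 719.3 CPM and from 488.2 through 534.4 to 598.7 CPM (-0.18 ± 0.05; adjusted p = 0.0230 by edgeR). In each case the groups overlapped, with 4, 4 and 6 of 8 Cic-S-KO libraries under every WT library. None of the 9 genes separated the groups, beside 1.84% of all genes.

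The other junction genes of the lung and Flt1 had negative estimates that missed the threshold: Flt1 -0.19 ± 0.07 (adjusted p = 0.0556), Esam -0.13 ± 0.06 (0.112), Pecam1 -0.12 ± 0.06 (0.167) and Cldn5 -0.08 ± 0.14 (0.763 by edgeR). Cldn5 was the most variable of them, from 408.9 to 797.0 CPM in Cic-S-KO. Ly6c1 differed by 0.15 ± 0.13. The Cdh5 and Kdr calls were lost without WT replicate 2 (adjusted p = 0.0555 and 0.0531), which left 2 genes, and without Cic-S-KO replicate 4 the count was 6, Esam and Flt1 joining. DESeq2 called 5 genes, Flt1 joining (adjusted p = 0.0391), and with GC bins removed 6 passed in edgeR, Flt1 (0.0414) and Esam (0.0252) joining. Of all genes 18.9% passed in DESeq2 and 15.2% with GC bins removed. Leukocyte and platelet genes moved in the same libraries: 5 of 7 rose (9.99% of all genes), among them Cd68 (1.09 ± 0.17) and Itgam (1.18 ± 0.25). Their sums were 165.5 to 260.9 CPM against 121.7 to 162.3 CPM in WT. Of 10 mural genes 4 fell (5.73% of all genes), with sums of 1345 to 1621 against 1534 to 1950 CPM. The part of these cells in the result was not tested.

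Mfsd2a was scarcely counted in lung, and its highest values were in Cic-S-KO. It held 4 to 9 reads per WT library and 3 to 79 reads per Cic-S-KO library. In WT it ran from 0.176 through 0.262 to 0.353 CPM, and in Cic-S-KO from 0.124 through 0.671 to 3.83 CPM, so that 7 Cic-S-KO libraries were above every WT library and 1 was below them all. The fitted difference was 2.21 ± 0.54 (adjusted p = 0.00706 by edgeR). Mfsd2a held few reads in WT and passed the low-count filter through knockout libraries, so this call is a weak one. It was also called without the filter. Over the 5 alternatives that tested it, the adjusted p ran from 6.63e-04 to 0.0208 by edgeR or DESeq2. Replicate 6 held the highest value, and without it the difference was 1.70 (adjusted p = 0.0218 by edgeR). In replicate 5, where Mfsd2a was at 1.58 CPM, cortical neuron genes summed to 13.4 CPM. The median of that sum over the Cic-S-KO lung libraries was 0.484 CPM. It was at most 0.890 CPM in any Cic-L-KO and 0.784 CPM in any WT lung library. A link between this sum and Mfsd2a was not tested. Without replicate 5 the Mfsd2a difference was 2.13 (adjusted p = 0.0139 by edgeR). Even the highest lung library was below the lowest cerebellar library of any genotype (6.04 CPM).

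**Figure D4:**
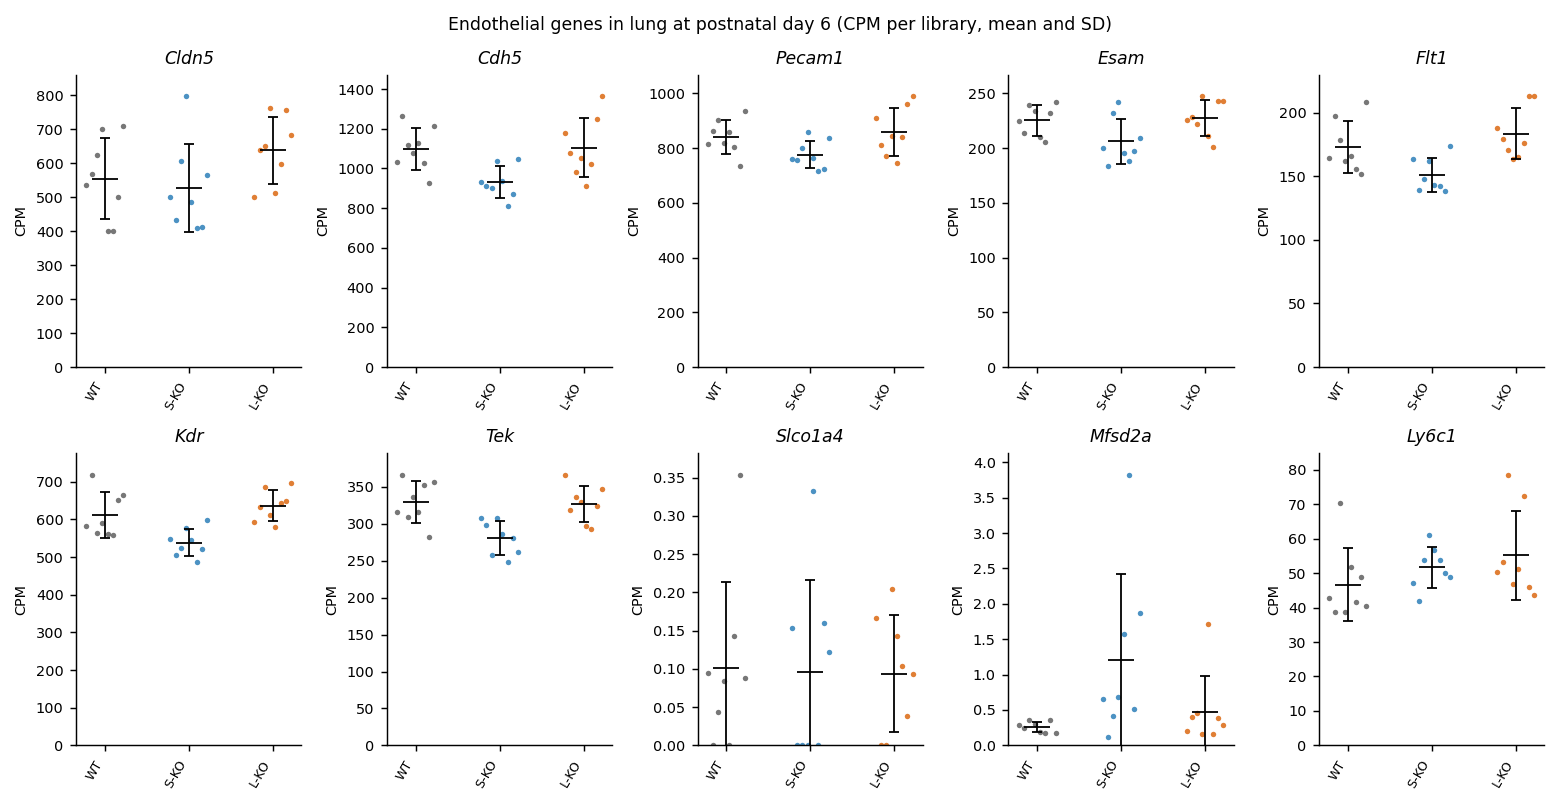
CPM of each gene in every lung library (points), with the group mean and SD (bars, cut at 0 where the SD exceeds the mean), n = 8 per group. Cdh5, Kdr and Tek of Cic-S-KO lie below those of WT with overlapping groups, Mfsd2a spreads upward to 3.83 CPM in Cic-S-KO, and Slco1a4 stays under 0.36 CPM in all libraries.

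In the Cic-L-KO lung 0 of 9 genes passed in edgeR, 0 had an unadjusted p under 0.05 and DESeq2 called 0, beside 4.89% of all genes by edgeR, 2.62% higher and 2.28% lower. The estimates ran from -0.01 (Tek, interval of 2 SE, -0.13 to 0.10) to 0.86 ± 0.59 (Mfsd2a, with a single library at 1.72 CPM). For Kdr, the gene that rose most in both brain regions, the estimate in lung was 0.06 ± 0.05 (interval -0.05 to 0.17), with 557.8 to 719.3 CPM in WT and 578.6 to 697.7 CPM in Cic-L-KO. Its estimates in cortex and cerebellum were 0.80 and 1.14. The difference of effects between lung and brain was not tested, since age and batch differ with tissue. Against Cic-L-KO, 4 genes were lower in Cic-S-KO lung (Cdh5, Flt1, Kdr and Tek, from -0.22 to -0.28), beside 12.2% of all genes, 7.31% higher and 4.85% lower; none was without overlap, beside 1.21% of all genes. Kdr gave the smallest adjusted p of these (-0.24 ± 0.05; adjusted p = 0.00418 by edgeR), with 7 of 8 Cic-S-KO libraries under every Cic-L-KO library. The Cdh5 call was lost without Cic-L-KO replicate 7 or 8 or Cic-S-KO replicate 6 (adjusted p up to 0.0589 by edgeR). With GC bins removed Esam joined (adjusted p = 0.0342 by edgeR). Without Cic-L-KO replicate 5 the count was 6, Pecam1 (lower) and Mfsd2a (higher) joining, and without Cic-S-KO replicate 4 it was also 6, Cldn5 and Esam joining.

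Other genes of the VEGF and angiopoietin pathway were followed by list, and each count stands beside the share of all genes in that comparison. In the Cic-L-KO cerebellum 8 of 10 tested rose and none fell (10.9% of all genes rose), among them Tie1, the partner receptor of TIE2 (0.55 ± 0.10), Flt4, the receptor of VEGF-C (0.52 ± 0.11), the phosphatase gene Ptprb (0.36 ± 0.07) and the ligand gene Vegfb (0.24 ± 0.04). In the Cic-L-KO cortex 5 of 11 rose, among them the co-receptor gene Nrp1 (0.77 ± 0.09), Flt4 (0.53 ± 0.13) and the ligand gene Vegfa (0.39 ± 0.08), and 1 fell, the ligand gene Vegfc (-0.61 ± 0.14); there 43.2% of all genes changed, 21.4% higher, so 6 of 11 changed genes is near the background. In the Cic-S-KO lung 5 of 11 fell (5.73% of all genes), among them Flt4 (-0.32 ± 0.09), Ptprb (-0.31 ± 0.09) and Angpt1, the ligand of TIE2 (-0.21 ± 0.07). The Cic-S-KO cortex had 0 of 11, beside 6.53% of all genes that passed. The Cic-S-KO cerebellum had 1 of 10 higher, Ptprb (0.26 ± 0.08), beside 4.34% of all genes. The Cic-L-KO lung had 1 of 11 lower, Vegfd (-0.31 ± 0.06), beside 2.28%.

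Of 20 further endothelial genes tested in each tissue, 14 rose in the Cic-L-KO cerebellum (median 0.47), among them Vwf, which encodes von Willebrand factor (0.89 ± 0.14), and 11 rose in the Cic-L-KO cortex (median 0.30), among them Arhgef15 (0.95 ± 0.05) and Nos3, the endothelial nitric oxide synthase (0.64 ± 0.14). None fell in either, beside 10.9% and 21.4% of all genes that rose. In the Cic-S-KO groups 4 fell in lung (Emcn, Eng, Erg and Cyyr1), beside 5.73% of all genes. There 0 passed in cortex (6.53% of all genes passed) and 3 rose in cerebellum (4.34% of all genes rose). Of 20 further blood-brain barrier genes, 13 rose in the Cic-L-KO cerebellum, among them the anion transporter gene Slc22a8 (0.72 ± 0.10), and 8 in the Cic-L-KO cortex, among them the amino acid transporter gene Slc7a5 (0.37 ± 0.05). None of the 20 fell in cortex, where 21.4% of all genes rose and 43.2% changed in either direction. In Cic-S-KO 6 of 20 barrier genes rose in cerebellum (4.34% of all genes rose) and 1 of 20 in cortex (2.83%). In Cic-S-KO lung 3 of 19 rose (9.99% of all genes) and 4 fell (5.73%), among them Slc16a1 (0.46) and Abcg2 (-0.26). In the Cic-L-KO lung 2 of 19 rose (2.62% of all genes). This barrier list summed to a mean of 2280 CPM in WT lung, 1835 CPM in WT cortex and 2145 CPM in WT cerebellum. Slco1a4 and Mfsd2a together gave 0.359, 53.4 and 45.5 CPM in the same order. The list was thus not confined to brain and does not mark the barrier alone. The sum of the other endothelial genes did not overlap between Cic-L-KO and WT in cerebellum (358.4 to 421.8 against 283.3 to 325.3 CPM) or in cortex (367.7 to 437.5 against 281.6 to 346.4 CPM). Genes of these lists that were not tested are not analysed here.

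**Figure D5:**
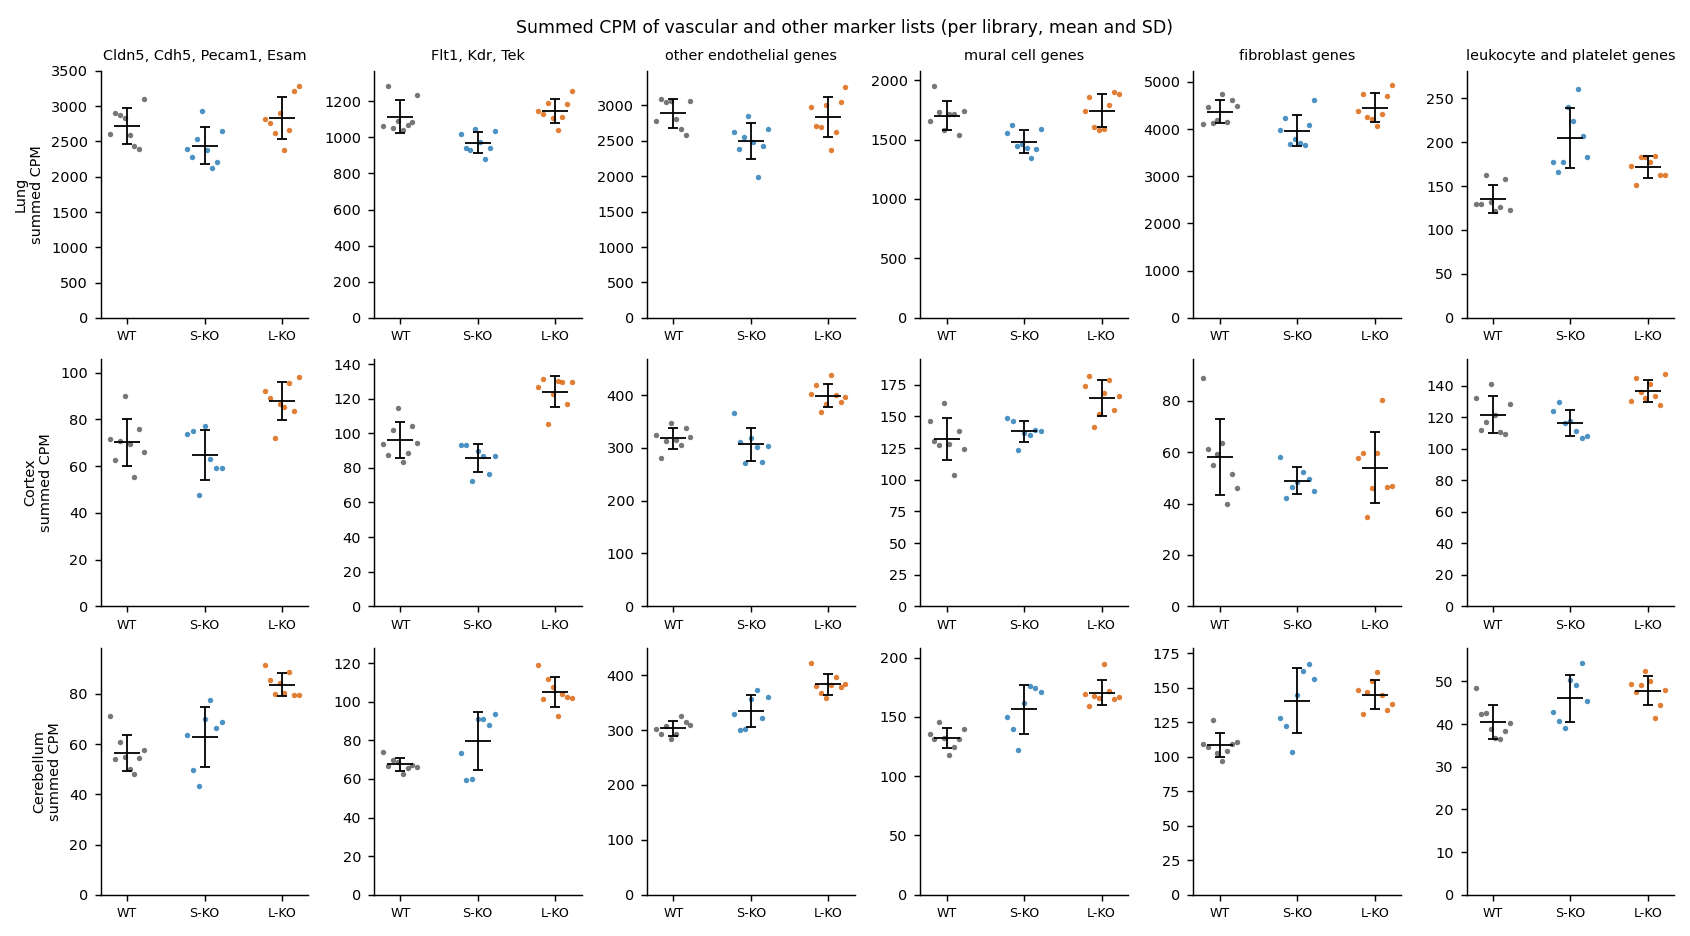
Summed CPM per library (points; bars are the group mean and SD) of the 4 junction and adhesion genes, the 3 receptor kinase genes and 4 further marker lists, by genotype, in lung, cortex and cerebellum. The mural sums of Cic-L-KO cerebellum (159.6 to 194.7 CPM) lie above those of WT (117.7 to 145.6 CPM), and the leukocyte and platelet sums of Cic-S-KO lung (165.5 to 260.9 CPM) above those of WT (121.7 to 162.3 CPM).

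The mean profile of the 10 genes over the 9 group means of log2 CPM, each profile centred on its own mean, was most like those of Ccnd1, which encodes cyclin D1 (root mean square difference 0.0836 on the log2 scale), Tjp1, which encodes the junction protein ZO-1 (0.0885), Adgrl4 (0.120), Mmp28 (0.120) and Rpgrip1 (0.129). The members themselves were spread more widely around that mean, from 0.298 for Ly6c1 and 0.303 for Flt1 to 3.25 for Mfsd2a and 4.69 for Slco1a4, so the mean stands for neither the lung-rich nor the brain-rich genes. The 9 groups share 3 tissues, and the likeness rests mostly on differences between them.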

How the data were processed

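RNA from flash-frozen lung, cortex and cerebellum was sequenced as polyA-selected libraries, per the labels' protocols. The deposited table holds the authors' raw counts for 50789 Ensembl genes in 70 libraries; reads were aligned with STAR 2.7 to GRCm38.p6, per the submitters' processing notes. The counting program, annotation and strand setting are not given in the sources used here. Gene names came from GENCODE M21 (50725 identifiers matched ignoring the version).

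Total counts averaged 24977728 ± 3272992 (SD, n = 70). Counts were tested in edgeR 4.0.16 under R 4.3.3 (filterByExpr, robust quasi-likelihood fit, Benjamini-Hochberg over all genes tested, threshold 0.05). The 3 genotypes of a tissue, or the 6 brain groups, were in 1 fit. TMM was taken over the libraries of each fit, so the brain fit normalised cortex and cerebellum together. The CPM given were normalised within each tissue. The fit was also run on simulated counts with the same spread for all genes and changes only in genes above a minimum mean count. That run does not cover scarce and variable genes such as Mfsd2a in lung. Intervals are 2 SE. The alternatives were DESeq2 1.42.0, RLE factors, no low-count filter, removal of 20 GC bins, the replicate number as a block, only the compared genotypes, and each library left out. Between cortex and cerebellum, libraries with the same number deviated together in WT (correlation of each pair 0.13 to 0.32) and in Cic-S-KO (0.18 to 0.30), which was taken as pairing from the data; the labels do not state one. Replicate numbers are those of the sample titles, which differ from the library numbers for most Cic-S-KO brain samples. No 2 libraries of a group held identical values.

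The 10 genes and the other lists were chosen with earlier results of these data known. Of each other list, at most the 4 genes with the smallest p per comparison are named. List genes that matched no identifier, among them Rgs5 (mural), Ptprc (leukocyte) and Cd34 (endothelial), were left out. The 5 genes of most similar profile are those with the smallest root mean square difference from the members' mean profile of log2 CPM (prior count 2). Promoter windows came from the RefSeq annotation of GRCm38.p6.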

Additional observations from a re-analysis of the deposited data

Results flagged for a closer look

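A single library stood far from the others of its group for 4 of the 90 sets of values (10 genes in 9 groups), and chance gives about 1 in 20, or 4.5. All 4 were in lung. Slco1a4 was at 0.353 CPM in WT replicate 7, with the next library at 0.143 CPM. Mfsd2a was at 1.72 CPM in Cic-L-KO replicate 5, with the next at 0.464 CPM, and at 3.83 CPM in Cic-S-KO replicate 6, with the next at 1.87 CPM. Ly6c1 was at 70.3 CPM in WT replicate 3, with the next at 51.7 CPM.

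For 2 genes the effect of a knockout differed between cortex and cerebellum by the test of the difference itself. That fit left out the replicate number. The effect of Cic-S-KO on Flt1 differed by -0.38 (log2; adjusted p = 0.0462 by edgeR), being -0.11 in cortex and 0.26 in cerebellum. The effect of Cic-L-KO on Cdh5 differed by -0.41 (adjusted p = 0.0311 by edgeR), being 0.23 in cortex and 0.64 in cerebellum. With the replicate number as a block, Flt1, Cdh5 and Kdr passed for Cic-S-KO and Cdh5 for Cic-L-KO.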

How the results depend on the processing

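Of 75 counts of called genes recomputed under the alternatives, 66 stayed within 1.5 times the reported count, and of 729 log2 fold changes 685 kept their direction and side of the threshold. The cause of each change was not tested. In the Cic-S-KO cortex 0 genes passed with GC bins removed and 0 with only the compared genotypes, and in the Cic-S-KO cerebellum DESeq2 called 2. For the difference of Cic-S-KO effects between regions, the count was 3 with DESeq2 and 0 without the low-count filter; for Cic-L-KO it was 2 with DESeq2, 2 with GC bins removed and 0 without the filter.

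With each library left out, the counts ran from 2 to 6 (lung Cic-S-KO against WT), 0 to 0 (lung Cic-L-KO), 3 to 6 (lung, knockouts compared), 0 to 1, 5 to 8 and 6 to 7 (cortex, in that order), and 0 to 4, 7 to 9 and 4 to 7 (cerebellum).

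With the replicate number as a block, the difference of Cic-S-KO effects between regions gave 3 genes, and the WT comparison of regions (9) and the Cic-L-KO difference (1) kept their counts. Within a tissue no pair of groups had every correlation over 0.1, so the numbers were not taken as pairing, although in lung 6 of 8 samples of WT and Cic-L-KO correlated best with their own number. There the block gave 6 genes (adding Flt1 and Esam), 0, and 6 (adding Cldn5 and Esam); it gave 1, 6 (adding Cdh5) and 6 for cortex, and 0, 7 (losing Mfsd2a) and 5 (losing Flt1) for cerebellum.

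The 11 estimates that changed sign were all near 0 and not called. In lung Cic-L-KO with GC bins removed, Cdh5 was -0.0087, Esam -0.0067 and Tek 0.00029. In cortex Cic-S-KO, Esam was 0.0018 with DESeq2, 0.0018 with RLE factors, 0.0096 without the filter and 0.0068 with only the compared genotypes, and Pecam1 was 0.0022 with GC bins removed, 0.0029 without the filter and 0.00089 with the replicate block. Cldn5 in cerebellum Cic-S-KO was 0.013 with the replicate block. Depth limits Slco1a4 and Mfsd2a in lung, with at most 9 reads of Mfsd2a per WT library.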

Other observations

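Markers of vessel subtypes were also measured in lung. In Cic-S-KO, 1 of 6 arterial genes, 2 of 4 venous genes and 1 of 3 lymphatic genes tested fell and none rose, and of 9 lung capillary genes 1 rose and 1 fell (edgeR, adjusted p under 0.05). Of all genes 15.7% passed there, 5.73% lower, so the arterial and capillary counts are near the background. Summed lymphatic genes ran from 281.7 to 408.3 CPM in Cic-S-KO and from 288.7 to 527.4 CPM in WT, and arterial genes from 457.3 to 674.2 CPM and from 615.2 to 704.0 CPM, with overlap in both. Red cell genes gave 0 of 5 in Cic-S-KO lung and 0 of 5 in Cic-L-KO cerebellum.

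The same lists did not all move alike in the Cic-L-KO brain. In cortex, where 43.2% of all genes changed, 1 of 6 arterial genes rose (Dll4, 0.52) and 1 fell (Hey1, -0.26), and 1 of 4 venous genes rose (Ephb4, 0.44) and 1 fell (Nr2f2, -0.73). The arterial sum there ran from 113.3 to 135.3 CPM, against 126.1 to 148.3 CPM in WT. In cerebellum 1 of 6 arterial genes fell (Hey1, -0.12), none rose, and 2 of 4 venous genes rose (Ephb4, 0.27, and Slc38a5, 0.69). Of 8 lung capillary genes tested, 4 rose in cortex and 2 in cerebellum, and none fell, beside 21.4% and 10.9% of all genes that rose. Their sum did not overlap in cortex (236 to 272.7 CPM against 179.9 to 218.4 CPM in WT) and overlapped in cerebellum. In WT this sum averaged 648.1 CPM in cerebellum and 194.4 CPM in cortex, and 6 of the 8 genes were lower in cortex. Of the 10 endothelial genes 9 were higher in cortex, so this list did not follow them between the regions. Which brain cells carried the genes of these subtype lists was not tested.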
